A study of Mus musculus with 14 samples.

Results

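The S100 proteins are small calcium-binding proteins, most of which act as dimers. Calcium bound at their EF-hand loops opens a surface that grips partner proteins, and some members also leave the cell and act on receptors such as RAGE (Ager) and TLR4. In the lung, S100A8 and S100A9 are known as a pair held in large amounts by neutrophils, while other members are found in epithelium, fibroblasts and muscle. The members described here were 8 named genes: S100a1, S100a4, S100a6, S100a8, S100a9, S100a10, S100a11 and S100a13. Every probeset on the array whose annotation gave 1 of these symbols alone was taken, which gave 9 probesets for 7 genes, out of 22690 probesets in all. S100a1 and S100a10 had 2 probesets each. S100a11, a partner of annexin A1, had only a probeset that also names a pseudogene and a further gene model, so no value is given to S100a11 itself. That shared probeset was bright and even, between 13.35 and 13.69 in the deficient tumours and between 13.48 and 13.72 in control tumours, on the log2 scale used throughout.

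Arrays were made from total RNA of tumours, 7 from mice labelled Hif2alpha deficient and 7 from control mice. The titles call the first group a Hif 2alpha knockdown. They number the arrays as replicates and give no count of mice. Both groups shared a mixed background, given as 129 SvJ/C57Bl6. HIF-2α, encoded by Epas1, is a transcription factor that acts when oxygen is low. The labels give neither the organ, the age of the mice, how Hif2alpha was lowered nor any other allele, and they do not say whether an array held 1 tumour or several; the series is known to come from work on lung tumours. Because whole tumours were measured, fewer cells of a type and less RNA per cell cannot be told apart in any value below.

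The arrays were alike in overall level, with array medians of 5.13 to 5.20 in deficient tumours and 5.19 to 5.29 in control tumours. The mean gap between 3' and 5' control probesets of 4 genes, a measure of RNA quality, ran from 2.53 to 3.08 in deficient and from 2.52 to 3.52 in control arrays. Epas1 read 4.88 to 6.38 in deficient and 4.65 to 6.50 in control tumours (difference -0.19, SE 0.30, limma adjusted p = 0.807), so its single probeset did not separate the groups. The labels do not say which part of the gene was changed, so what this value checks is not known. The descriptions of the arrays begin with numbers that arrays share, 4 among deficient and 2 among control arrays, and their meaning is not given. The p-values below take the 14 arrays as independent.

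None of the 9 S100 probesets passed an adjusted p under 0.05 between deficient and control tumours. Over all 12701 probesets tested, 0.0394% passed in either direction. At an unadjusted p under 0.05 the members also gave 0 of 9, against 14.7% of all tested probesets. The groups overlapped in all 9, while 0.496% of all tested probesets had groups that did not overlap. Differences, always deficient minus control, ran from -0.15 for S100a4 to 0.32 for S100a8, with 4 probesets higher, against 52.6% of all tested probesets, and 5 lower, against 47.4%. Their median was -0.09, beside 0.02 over all tested probesets. All 9 passed the filter on low values in every array of both groups, so no member was lost to background.

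The S100a8 and S100a9 proteins form calprotectin, which binds calcium and sequesters zinc and manganese from microbes, and which signals through TLR4 and RAGE once released. S100a8 (probeset 1419394_s_at) ran from 8.06 to 9.52 in deficient tumours, with a median of 8.97, and from 7.16 to 10.56 in control tumours, with a median of 7.77. The range of the controls thus enclosed that of the deficient tumours. The means were 8.72 ± 0.58 in deficient and 8.40 ± 1.39 in control tumours (SD, n = 7 each), a difference of 0.32 (SE 0.52, limma adjusted p = 0.815). Its 95% interval, -0.80 to 1.43, leaves room for a fold between 0.576 and 2.70. S100a9 (1448756_at) ran from 9.17 to 10.42 in deficient tumours, median 9.94, and from 8.44 to 11.66 in control tumours, median 9.16. The means of S100a9 were 9.86 ± 0.46 and, in controls, 9.61 ± 1.23 (difference 0.24, SE 0.46, limma adjusted p = 0.844).

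The wide control range of this pair came from 2 arrays. S100a8 read 10.56 in control 3 and 10.25 in control 6, whereas the other 5 controls lay between 7.16 and 7.92. All 7 deficient tumours lay above those 5 controls and below control 3 and control 6. S100a9 had the same layout, at 11.66 in control 3 and 11.05 in control 6, with 8.44 to 9.20 in the other 5 controls and 6 of 7 deficient tumours above these. This order was seen in the values and carries no test. Leaving out control 3 gave a difference of 0.68 for S100a8 (limma adjusted p = 0.528) and 0.58 for S100a9 (adjusted p = 0.507). Leaving out control 6 gave 0.63 for S100a8 (limma adjusted p = 0.625) and 0.48 for S100a9 (adjusted p = 0.691). Both arrays carry the leading number shared by 5 of the controls. Other arrays moved the differences the other way: leaving out control 4, control 5, control 7 or deficient 6 gave 0.11, 0.17, 0.19 and 0.19 for S100a8, and leaving out control 4, control 5, control 7 or deficient 4 gave 0.095, 0.046, 0.15 and 0.15 for S100a9. With 1 array left out at a time both differences stayed above 0 and none passed. The spread within groups was wide beside that of other probesets: S100a8 stood at percentile 95.8 and S100a9 at percentile 93.9 of the within-group SD of all tested probesets.

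**Figure D1:**
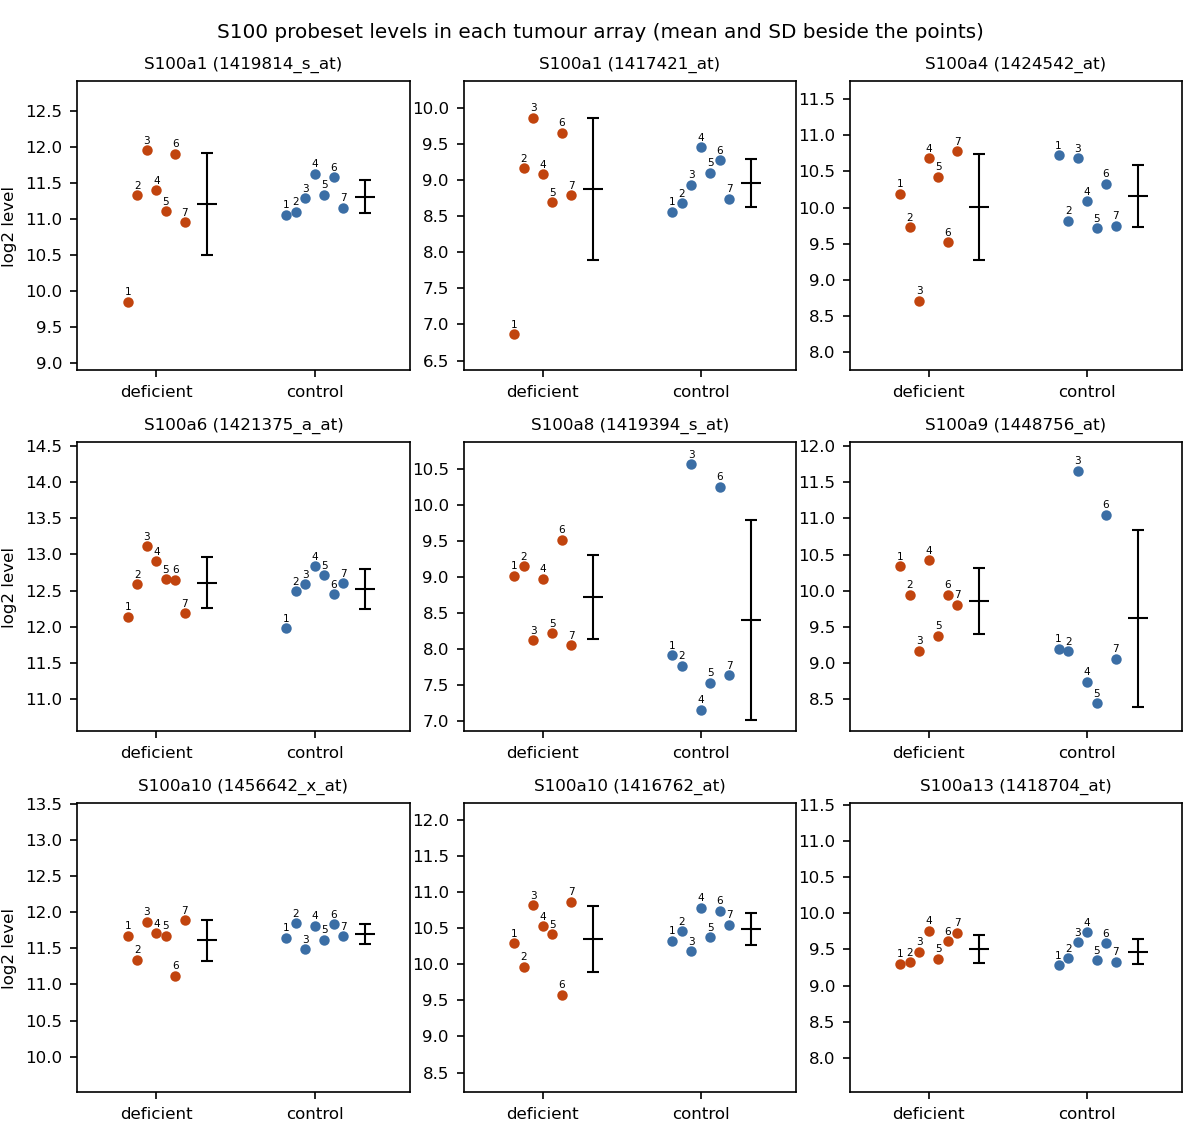
Log2 level of each of the 9 S100 probesets (one panel each, every panel spanning the same number of log2 units) in the 7 deficient tumours, left, and the 7 control tumours, right; numbers are replicates and bars are mean ± SD. S100a8 and S100a9 are high in control 3 and control 6, S100a1 is low in deficient 1, and the groups overlap in every panel.

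S100a8 and S100a9 varied together from tumour to tumour. With the group means removed, their correlation over 14 arrays was r = 0.941 (rho = 0.881, permutation p = 1e-05, the smallest that the resamples can give, adjusted over 21 pairs of members to p = 0.00021). Without control 3 and control 6, the arrays farthest from the median, r was 0.815. Within groups r was 0.670 in deficient and 0.984 in control tumours (n = 7 each).

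**Figure D2:**
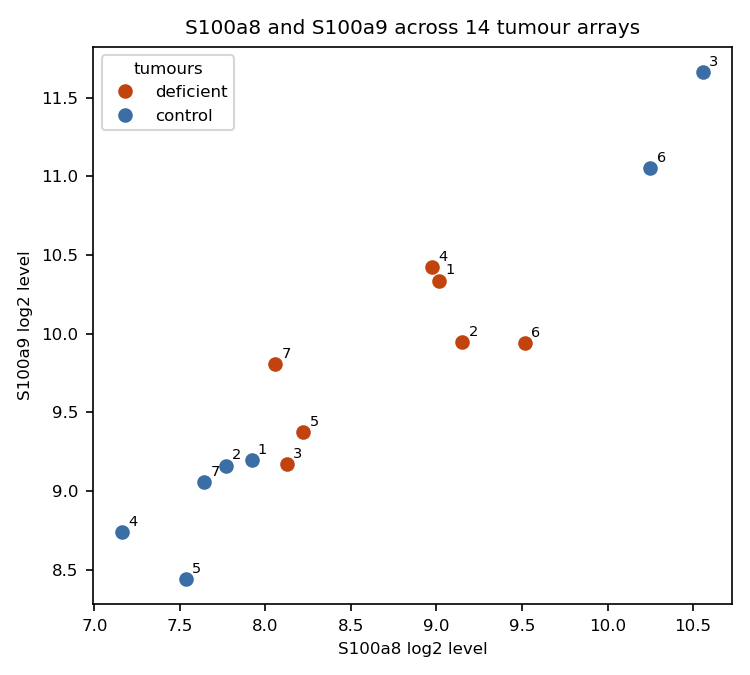
Log2 level of S100a9 against log2 level of S100a8 in 14 tumour arrays, coloured by group and numbered by replicate. On the S100a8 axis the deficient tumours lie between the 5 low controls and the pair of high controls, control 3 and control 6; on the S100a9 axis deficient 3, at 9.17, lies below control 1, at 9.20.

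The upstream sequences of this pair were set side by side because the genes varied together, and that of S100a4 because it shares a motif with S100a8. They are the 250 bases before the transcription start in RefSeq's promoters of build GRCm38.p6, on chr3:90668821-90669070 (plus strand), chr3:90695722-90695971 (minus strand) and chr3:90603520-90603769 (plus strand), each written 5' to 3' on the gene's strand. Capitals mark TATAAA, the core of the TATA box.
S100a8: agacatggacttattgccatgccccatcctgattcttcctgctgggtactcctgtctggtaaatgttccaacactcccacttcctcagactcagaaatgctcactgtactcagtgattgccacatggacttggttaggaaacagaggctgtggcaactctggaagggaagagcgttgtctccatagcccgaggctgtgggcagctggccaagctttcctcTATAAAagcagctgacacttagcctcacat
S100a9: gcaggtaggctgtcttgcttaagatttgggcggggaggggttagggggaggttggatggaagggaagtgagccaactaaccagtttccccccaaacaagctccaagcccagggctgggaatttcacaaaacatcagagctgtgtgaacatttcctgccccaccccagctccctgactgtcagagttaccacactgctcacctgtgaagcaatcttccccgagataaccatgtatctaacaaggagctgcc
S100a4: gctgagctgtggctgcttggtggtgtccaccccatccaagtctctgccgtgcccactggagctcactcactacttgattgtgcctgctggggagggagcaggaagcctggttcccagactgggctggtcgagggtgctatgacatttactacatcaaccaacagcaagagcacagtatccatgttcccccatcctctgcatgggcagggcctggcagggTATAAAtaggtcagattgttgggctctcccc
TATAAA, searched on both strands, began 30 bases before the start of S100a8 and 31 bases before that of S100a4, and these letters were not in the window of S100a9. They were present in 12.4% of 32851 upstream windows of the same length. The core letters bound by HIF proteins, ACGTG or GCGTG on either strand, were in none of these 3 windows, and in 38.6% of all windows. Of the 7 members matched in the promoter table, S100a13 held 1 GCGTG, and S100a11 held ACGTG on both strands at 1 overlapping place. The S100a13 match began 190 bases before the start given there, 90514435. RefSeq's gene table starts S100a13 at 90514233, so by that table the match lay inside the gene's span. The AP-1 motif TGANTCA (both strands) was found 2 times upstream of S100a11 and in no other matched member, with 6.75% of all windows holding it. These matches describe letters, not binding. The HIF and AP-1 letters overlapped at no place in these windows.

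Neutrophil markers were read beside the pair. Of 18 measured neutrophil genes, 7 were at or under the level of 4 that marks background here in all 14 arrays: the granule protein genes Ngp, Camp, Mpo, Elane, Prtn3 and Mmp8, and the receptor gene Trem1. The summed log2 level of the 18 ran from 66.1 to 78.4 in deficient and from 73.7 to 96.2 in control tumours. Lactotransferrin (Ltf), also made by secretory epithelium, read 3.49 ± 1.70 in deficient and 10.01 ± 2.92 in control tumours (difference -6.51, SE 1.16, limma adjusted p = 0.0787), so it did not pass. Without Ltf the sum ran from 63.8 to 73.2 in deficient and from 62.3 to 90.1 in control tumours, with medians of 68.8 in deficient and 68.7 in control tumours, so the lower sum in deficient tumours lay mainly in Ltf. The other 5 tested genes did not pass: the formyl peptide receptor gene Fpr2 differed by -1.32 (SE 0.80), Il1b by 0.56 (SE 0.42), Clec4d by -0.29 (SE 0.51), Ccr1 by -0.07 (SE 0.37) and Lcn2 by 0.05 (SE 0.15), with a lowest limma adjusted p of 0.459. The mean of the 6 tested neutrophil genes correlated with S100a8 at r = 0.250 (rho = 0.051, permutation p = 0.393, adjusted p = 0.696 over 63 pairs of a member and a list) and at 0.207 without control 3 and control 6. For S100a9 it was r = 0.217 (rho = 0.086, permutation p = 0.464, adjusted p = 0.696), and 0.155 without them. Measured genes above 4 in fewer than 7 arrays did not enter this mean, while Ltf did. These r values therefore do not show whether the pair follows neutrophils. The part of neutrophils in the pair's levels was not tested further. By the likeness rule, the 3 genes outside the S100 family nearest to S100a8 among 7760 genes were the T cell receptor component gene Cd3e (r = 0.901, rho = 0.776), the nucleotide hydrolase gene Nudt5 (r = 0.838, rho = 0.648) and the ubiquitin ligase gene Ube4b (r = 0.813, rho = 0.833). Without control 3 and control 6 these were 0.642, 0.527 and 0.668. Cd3e was also nearest to S100a9 (r = 0.918, rho = 0.771, or 0.719 without them), followed by Nudt5 (r = 0.828, rho = 0.622) and the interleukin-27 receptor gene Il27ra (r = 0.826, rho = 0.785). Without control 3 and control 6 those were 0.511 and 0.623. Within deficient tumours r with S100a8 was 0.135 for Cd3e, 0.20 for Nudt5 and 0.582 for Ube4b, against 0.985, 0.959 and 0.923 within control tumours. Within deficient tumours r with S100a9 was 0.435 for Cd3e, 0.260 for Nudt5 and 0.406 for Il27ra, against 0.967, 0.927 and 0.902 within control tumours. The likeness to these genes was thus higher within the control arrays, which hold both high values, and the difference between groups was not tested. As the highest of many, these r values carry no p.

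S100a1 is best known from heart and skeletal muscle, where the protein tunes calcium release and pumping. Its brighter probeset (1419814_s_at) ran from 9.86 to 11.95 in deficient tumours, median 11.33, and from 11.06 to 11.63 in control tumours, median 11.29. Deficient 1, at 9.86, lay far below the others, while deficient 3 and deficient 6 lay above every control. The difference was -0.09 (SE 0.26, limma adjusted p = 0.905), with an interval of -0.65 to 0.47. The second probeset (1417421_at) had the same difference of -0.09 (SE 0.36) and gave 6.86 in deficient 1, against 8.69 to 9.86 in the other deficient tumours and 8.56 to 9.45 in controls. Without deficient 1 the differences were 0.13 and 0.24, so this array sets their sign. The SD of the brighter probeset was 0.71 in deficient and 0.22 in control tumours. The SD was greater in deficient tumours for 7 of the 9 S100 probesets and for 69.4% of all tested probesets, so the members did not stand apart in this count, which was not tested.

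Both S100a1 probesets followed each other over the 14 arrays (r = 0.988, rho = 0.952, permutation p = 1e-05, and r = 0.959 without deficient 1 and deficient 3). The genes nearest to S100a1 were the death receptor gene Tnfrsf21 (r = 0.931, rho = 0.956), the deubiquitinase gene Usp47 (r = 0.927, rho = 0.833) and Ost4, a subunit gene of the oligosaccharyltransferase (r = 0.919, rho = 0.851). Without deficient 1 and deficient 3 they stood at 0.927, 0.915 and 0.672. Of the 63 pairs of a member and a cell type list, 1 passed by r, the fall of S100a1 with rising endothelial markers (r = -0.794, rho = -0.648, permutation p = 0.00062, adjusted p = 0.0391). By rho it did not pass (adjusted p = 0.262). It was r = -0.654 without deficient 1 and deficient 3, -0.853 within deficient and -0.291 within control tumours. Deficient 3 and deficient 6, with S100a1 at a mean of 11.93, share 1 leading number, and deficient 1 and deficient 5, at a mean of 10.48, share another; these 4 arrays hold both ends of the endothelial mean, so this p, which takes arrays as independent, may be too small. Of the 14 endothelial genes, all measured and none at background in all arrays, the summed log2 level ran from 81.4 to 121.8 in deficient and from 102.6 to 119.1 in control tumours. S100a1 also fell with alveolar type I (r = -0.713, permutation p = 0.00332, adjusted p = 0.105) and fibroblast genes (r = -0.668, permutation p = 0.00978, adjusted p = 0.138). With alveolar type II genes r was -0.596 (permutation p = 0.0591, adjusted p = 0.279), and with ciliated genes -0.573 (permutation p = 0.0262, adjusted p = 0.206). Without deficient 1 and deficient 3 these were -0.668, -0.493, -0.540 and -0.216. By rho the strongest fall was with alveolar type II genes (rho = -0.736, permutation p = 0.00334, adjusted p = 0.143), which did not pass. Their r was -0.552 within deficient and -0.951 within control tumours. Over the 14 arrays every list gave a negative r, so the fall was not particular to endothelial genes. Its sign was not steady for every list. Without deficient 1 and deficient 3, r was 0.159 with neutrophil and 0.263 with club and secretory genes. For heart muscle genes, r with S100a1 was -0.478 (permutation p = 0.0919, adjusted p = 0.362), or -0.648 without deficient 1 and deficient 3. By rho it was -0.728 (permutation p = 0.00453, adjusted p = 0.143). Only 3 of 14 heart muscle genes passed the filter. Their mean stood far highest in deficient 7, at 3.68 with group means removed, and both r values kept that array.

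S100a13, whose protein helps export FGF1 and interleukin-1α by a route outside the secretory pathway, was the steadiest of the 7 measured genes. It (1418704_at) ran from 9.30 to 9.76 in deficient tumours, median 9.47, and from 9.28 to 9.74 in control tumours, median 9.38. The ranges nearly coincided, with a difference of 0.04 (SE 0.11, 95% interval -0.19 to 0.28, limma adjusted p = 0.889). Its within-group SD stood at percentile 10.3 of all tested probesets. S100a13 and S100a1 are divergent neighbours whose spans overlap at their starts in RefSeq's gene table. The starts in the promoter table do not overlap and leave 104 bases between them. Across tumours the neighbours had r = 0.441 (rho = 0.481, permutation p = 0.109, adjusted p = 0.381), 0.382 within deficient and 0.842 within control tumours, and 0.429 without deficient 1 and deficient 3. The genes nearest to S100a13 were the ribosomal protein gene Rps3a1 (r = 0.872, rho = 0.824), the exon junction gene Rbm8a (r = 0.870, rho = 0.881) and the microtubule polymerase gene Ckap5 (r = 0.855, rho = 0.833). Leaving out control 4 and deficient 4 gave 0.810, 0.835 and 0.776.

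S100a4 is linked with cell movement and metastasis, is a classic fibroblast gene and binds the heavy chain of nonmuscle myosin IIA (Myh9). It (1424542_at) ran from 8.71 to 10.78 in deficient tumours, median 10.19, and from 9.71 to 10.73 in control tumours, median 10.09. Deficient 3, the lowest at 8.71, and deficient 6 at 9.52 lay below all controls, deficient 7 at 10.78 lay just above them, and the other 4 lay among them. The difference was -0.15 (SE 0.30, 95% interval -0.79 to 0.49, limma adjusted p = 0.852), and 0.06 without deficient 3. The lists that S100a4 followed most by r were alveolar type I (r = 0.654, rho = 0.604, permutation p = 0.0109, adjusted p = 0.138), alveolar type II (r = 0.646, rho = 0.429, permutation p = 0.0155, adjusted p = 0.152) and endothelial genes (r = 0.626, rho = 0.486, permutation p = 0.0169, adjusted p = 0.152). None of them passed, and r was 0.395, 0.0928 and 0.432 without deficient 3 and deficient 7. Within deficient tumours r was 0.850, 0.838 and 0.781, against -0.229, -0.104 and -0.0393 within control tumours. Fibroblast genes gave r = 0.510 with S100a4 (rho = 0.341, permutation p = 0.0627, adjusted p = 0.279), and r was 0.214 without deficient 3 and deficient 7, 0.783 within deficient and -0.202 within control tumours. The genes nearest to S100a4 were Glipr2 (r = 0.905, rho = 0.877), the small GTPase gene Rap2a (r = 0.889, rho = 0.859) and the zinc importer gene Slc39a8 (r = 0.857, rho = 0.837). These were 0.794, 0.821 and 0.664 without deficient 3 and deficient 7.

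S100a6, or calcyclin, is found in many dividing epithelial and mesenchymal cells and binds the ubiquitin ligase adaptor encoded by Cacybp. It (1421375_a_at) ran from 12.14 to 13.12 in deficient tumours, median 12.65, and from 11.98 to 12.84 in control tumours, median 12.59. Deficient 3 at 13.12 and deficient 4 at 12.91 lay above every control, control 1 at 11.98 lay below every deficient tumour, and the other arrays were mixed. The difference was 0.09 (SE 0.17, 95% interval -0.27 to 0.44, limma adjusted p = 0.850), and without control 1, the lowest array, the difference was -0.01. S100a6 followed S100a1 by r (r = 0.710, permutation p = 0.00327, adjusted p = 0.0343) but did not pass by rho (rho = 0.675, adjusted p = 0.105), and r was 0.510 without deficient 1 and deficient 3. It ran against S100a4 at r = -0.560 (rho = -0.420, permutation p = 0.0368, adjusted p = 0.258), or -0.231 without deficient 3 and deficient 7. Of the cell type lists, S100a6 had its smallest p with alveolar type II genes (r = -0.65, rho = -0.560, permutation p = 0.00836, adjusted p = 0.138), which did not pass. That r was -0.682 without control 1 and deficient 1, -0.725 within deficient and -0.50 within control tumours. The genes nearest to S100a6 were Acbd6 (r = 0.872, rho = 0.824), the BCL2 family gene Bok (r = 0.854, rho = 0.705) and the interleukin-3 receptor gene Il3ra (r = 0.851, rho = 0.837), at 0.854, 0.779 and 0.762 without control 1 and deficient 1.

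S100a10, or p11, is the member whose EF hands have lost calcium binding. It joins annexin A2 (Anxa2) in a complex that binds plasminogen at the cell surface. Its brighter probeset (1456642_x_at), of a class that can cross-hybridise, ran from 11.12 to 11.89 in deficient tumours, median 11.68, and from 11.48 to 11.85 in control tumours, median 11.66. Deficient 6 and deficient 2 were the lowest arrays, below all controls, while deficient 7 at 11.89 and deficient 3 at 11.87 lay just above every control. The difference was -0.09 (SE 0.13, 95% interval -0.36 to 0.18, limma adjusted p = 0.780), and the second probeset (1416762_at) gave -0.14 (SE 0.19, limma adjusted p = 0.776). Leaving out deficient 6 brought both differences to -0.01. The probesets followed each other (r = 0.952, rho = 0.903, permutation p = 1e-05, and r = 0.890 without deficient 6 and deficient 2). The genes nearest to S100a10 were the LIM domain genes Pdlim1 (r = 0.846, rho = 0.662) and Lmo4 (r = 0.818, rho = 0.600) and the occludin gene Ocln (r = 0.788, rho = 0.789). Without those arrays they stood at 0.644, 0.654 and 0.710.

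Of the 21 pairs of members, r passed the adjusted threshold in 2, S100a8 with S100a9 and S100a1 with S100a6, and both r and rho passed in 1, S100a8 with S100a9. These correlations share arrays, and arrays with a common leading number may not be independent; these numbers held 1 to 5 arrays each, too few for values within them.

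**Figure D3:**
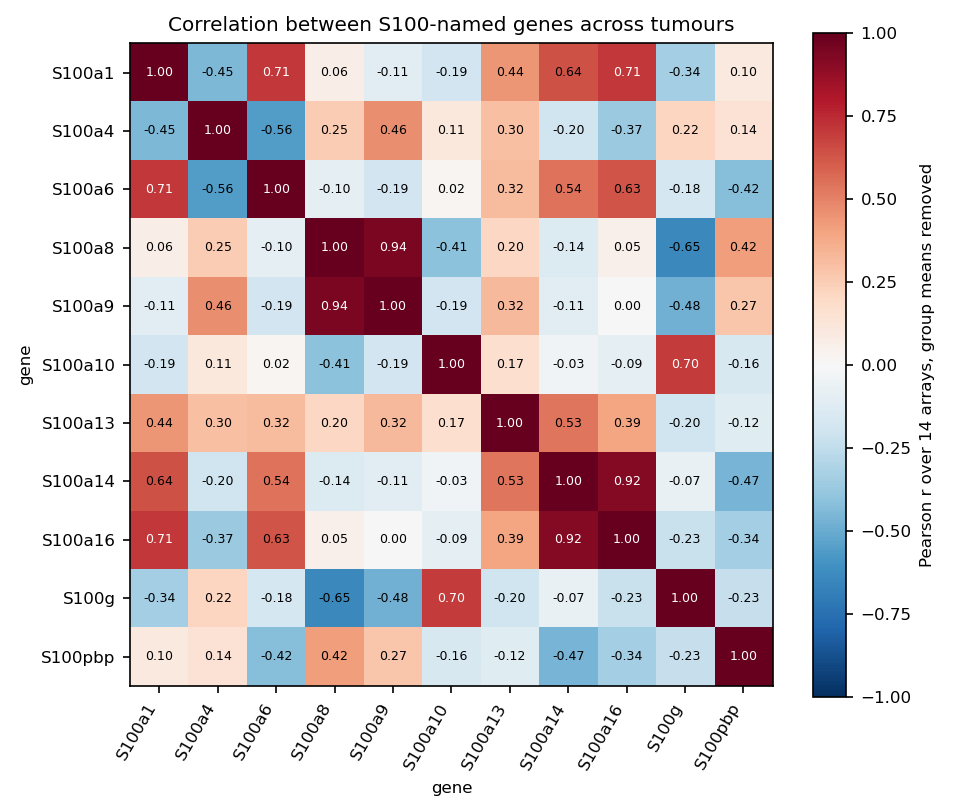
Pearson r between S100-named genes over 14 arrays after the group means were removed, in a matrix with genes on both axes and red for positive and blue for negative values. S100a8 and S100a9 form the strongest pair of members at 0.94, and S100a1 follows S100a6 at 0.71.

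Other S100-named genes were read as company for the members. There were 8 single-symbol probesets of 7 genes, of which 4 passed the filter and 0 were called. S100a14, an epithelial member, ran from 6.79 to 11.81 in deficient tumours, median 9.89, and from 6.01 to 10.90 in control tumours, median 7.09. It had the widest difference, 1.59 (SE 0.81, limma adjusted p = 0.383), at percentile 99.0 of within-group SD. S100a16 differed by 0.40 (SE 0.19, limma adjusted p = 0.353), S100g, the vitamin D dependent calbindin D9k, by -0.26 (SE 0.14, adjusted p = 0.422), and S100pbp, whose product binds S100P, by 0.14 (SE 0.12, adjusted p = 0.613). The probesets of S100a3 and S100a5 and both of S100b stayed at background, except that 1 S100b probeset read 4.23 in control 3. None of the 28 pairs between a member and these genes passed after adjustment, and the closest was S100a1 with S100a16 (r = 0.708, rho = 0.728, permutation p = 0.00333, adjusted p = 0.0792), or 0.511 without deficient 1 and deficient 3.

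Partners and receptors were taken from a list of 30 genes, of which 28 had a single-symbol probeset and 22 were tested. Over all tested probesets 0 of the 22 passed, with 11 higher and 11 lower. At an unadjusted p under 0.05 there were 4 higher, against 8.09% of all tested probesets, and 2 lower, against 6.57%. Tlr4, a receptor of the S100a8 and S100a9 proteins, read 8.91 ± 0.42 in deficient and 8.39 ± 0.42 in control tumours (SD, n = 7 each), a difference of 0.51 (SE 0.21, limma adjusted p = 0.292). Ager, which encodes RAGE and also marks alveolar type I cells, differed by -0.10 (SE 0.14, limma adjusted p = 0.789). The fatty acid receptor gene Cd36, which takes up lipid carried by the pair, differed by 0.32 (SE 0.13, limma adjusted p = 0.288) in its brightest probeset. The 2 dimmer Cd36 probesets gave 0.41 (SE 0.12, limma adjusted p = 0.155) and 0.54 (SE 0.14, adjusted p = 0.132). Cyba, the NADPH oxidase subunit gene, differed by -0.37 (SE 0.15, adjusted p = 0.289).

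Among partners inside the cell, Anxa2 differed by 0.04 (SE 0.12, limma adjusted p = 0.922), Anxa1 by -0.01 (SE 0.12, adjusted p = 0.981) and Myh9 by 0.09 (SE 0.09, adjusted p = 0.682). The tissue plasminogen activator gene Plat, which acts on the plasminogen bound by the annexin A2 complex, differed by 0.43 (SE 0.19, limma adjusted p = 0.323). Tubb5, a beta-tubulin gene, had the smallest p when each gene of the list was read by its brightest probeset, at 11.16 ± 0.24 in deficient and 10.65 ± 0.24 in control tumours (difference 0.51, SE 0.13, limma adjusted p = 0.134). The phosphatase gene Ppp5c differed by -0.31 (SE 0.13, limma adjusted p = 0.310), Cacybp by -0.30 (SE 0.21, adjusted p = 0.546) and Fgf1 by -0.26 (SE 0.18, adjusted p = 0.531).

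The cell type lists set beside the members held no gene that passed over all tested probesets. Of their tested genes, 17 of 20 macrophage genes were lower in deficient tumours (median difference -0.42), 16 of 17 fibroblast genes (-0.45), 13 of 14 endothelial genes (-0.61), 7 of 9 alveolar type I genes (-0.23), 8 of 9 club and secretory genes (-1.64), 5 of 5 ciliated genes (-2.32) and 4 of 6 neutrophil genes (-0.18). Of the alveolar type II genes 9 of 12 were higher (0.08), as were 2 of 3 heart muscle genes (0.72). The S100 members, with a median of -0.09, thus stood closer to 0 than the club, ciliated, endothelial, fibroblast and macrophage lists, and that difference was not tested. The summed log2 level of the 20 macrophage genes ran from 171.5 to 185.8 in deficient and from 174.7 to 195.6 in control tumours, and that of 18 fibroblast genes from 131.8 to 157.1 and, in controls, from 148.7 to 166.6. That of 14 heart muscle genes ran from 41.7 to 118.9 in deficient tumours, median 45.4, and from 44.4 to 56.0 in controls, median 48.7. With group means removed, the mean of the 3 tested heart muscle genes was 3.68 in deficient 7. The next highest array, deficient 5, had 1.17.

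**Figure D4:**
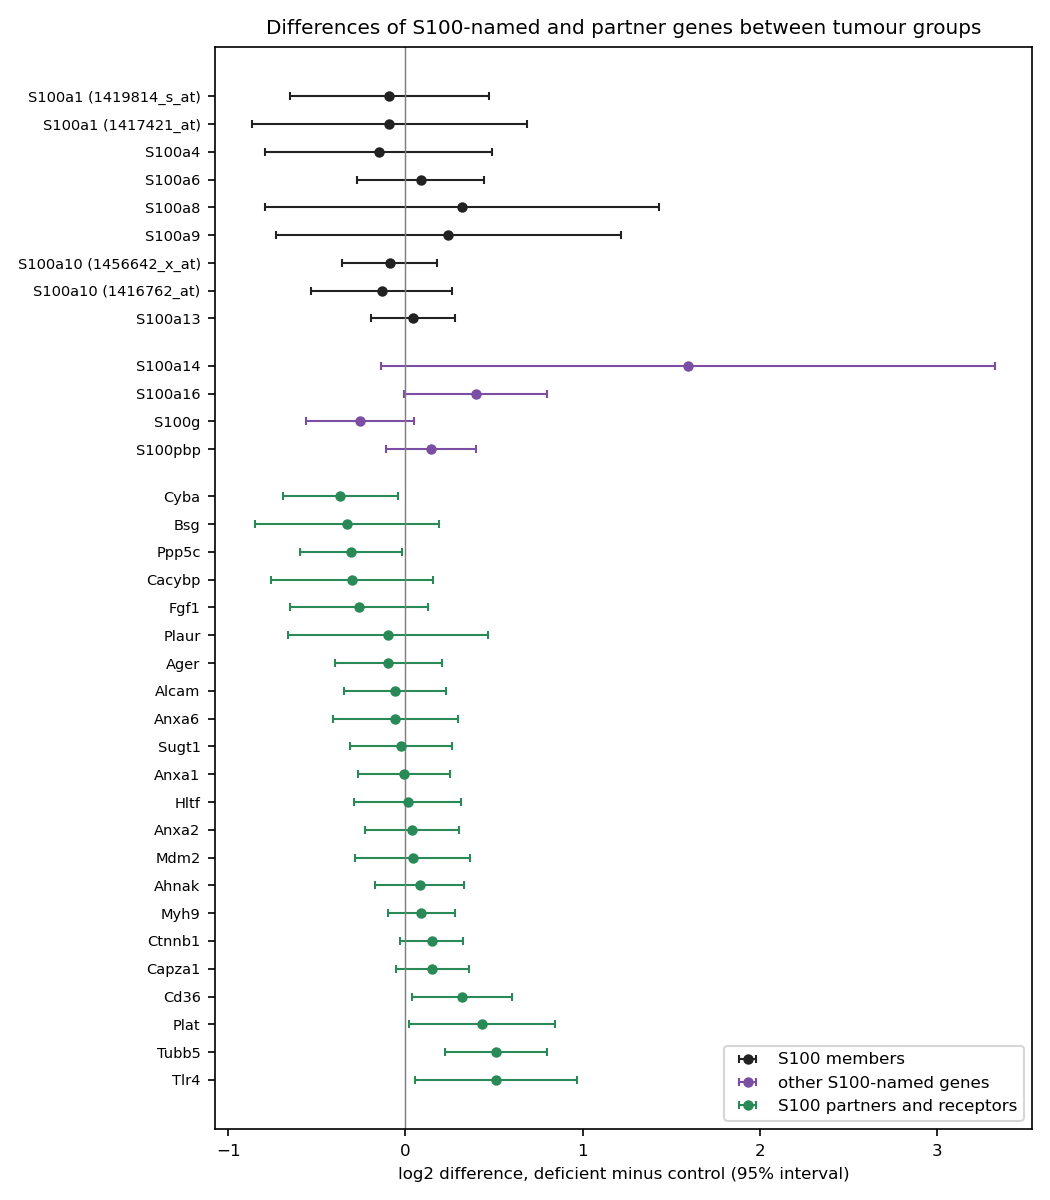
Log2 difference, deficient minus control, with 95% intervals from the fit over all probesets, for S100 members, other S100-named genes and S100 partners, 1 row a probeset. All 9 member intervals cross 0, and the widest of these is that of S100a8, from -0.80 to 1.43.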

How the data were processed

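The values are log2 probeset levels that the authors made with GCRMA and deposited, per the submitters' processing notes; its version was not stated there. GCRMA corrects background from the base content of probes and then normalises and summarises them. Levels pile up just above 2, and 4 was taken as the edge of background.

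Of 22690 probesets, 64 were controls, 20380 had 1 symbol in the platform annotation, which can be old, 691 several and 1555 none. Those above 4 in at least 7 of 14 arrays (12701) were tested with limma 3.58.1 in R 4.3.3 (7 deficient against 7 control, eBayes, two-sided, Benjamini-Hochberg over all of them), by a script tested on simulated data. The number of arrays limits the precision, and the limma p-values set each group difference against the spread between arrays within groups.

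For correlations the group means were removed. Permutation p-values (two-sided, 100000 resamples, numpy 2.4.6) were adjusted within 3 families: 21 pairs of members, 28 pairs with other S100-named genes and 63 pairs with 9 cell type lists, each list read as the mean of its tested genes. Where r and rho are printed together before a p-value, that p-value belongs to r. The brightest probeset stood for a gene in pairs and lists. Named are all member probesets, for each member the 3 genes of highest r, the 6 partners of smallest p with Anxa2, Ager and Tlr4, and Anxa1, Myh9, Cacybp and Fgf1, chosen after their values were seen. Members and lists were chosen with earlier results of these data known. Titles share replicate numbers between groups, but same-numbered arrays deviated together at r of -0.23 to 0.22 over 7 pairs, so they were not paired. Alternatives covered the filter, normalisation, variance model, array weights, blocks and arrays left out.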

Additional observations from a re-analysis of the deposited data

Results flagged for a closer look

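In the 7 deficient tumours the second S100a1 probeset read 6.86 in deficient 1, and the gap to the next array was 0.609 of the whole range, above Dixon's 95% critical value for 7 arrays. It was the only 1 of 18 sets of 7 values, 2 groups of 9 probesets, in which an end value stood so far apart, and chance does so in about 1 in 20. The brighter S100a1 probeset was also lowest in deficient 1, at 9.86.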

How the results depend on the processing

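Across 24 alternative settings 0 of the 9 S100 probesets passed an adjusted p under 0.05 (lowest 0.165, for S100a8 with array weights, limma), and 207 of 216 differences kept their direction. With array weights the sign turned for both S100a1 probesets (0.21 and 0.14) and for S100a4 (0.11). Without deficient 3 and deficient 6, set apart by an earlier look at these data, it turned for S100a4 (0.20) and S100a6 (-0.025). With 1 array left out at a time, S100a1 ran from -0.26 to 0.24 and, in its brighter probeset, from -0.21 to 0.13, S100a4 from -0.28 to 0.063, S100a6 from -0.0050 to 0.16, S100a8 from 0.11 to 0.68 and S100a9 from 0.046 to 0.58. With array weights S100a8 differed by 0.93 and S100a9 by 0.80. With the replicate number as a block (replicate block), S100a8 differed by 0.32 (adjusted p = 0.803) and 0 members passed; 0 of 14 arrays correlated best with the array of their own number in the other group. With a random block for the leading number (consensus correlation 0.349 within numbers) 0 members passed, and S100a8 differed by 0.50. The cause of these changes was not tested. The count of all called probesets, 5 as reported, was 0 with no filter (more probesets tested), 9 with a robust variance trend, 1900 with array weights, 0 with the random block, 2 with the replicate block, 31 without deficient 3 and deficient 6, and 0 to 85 with 1 array left out.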
